A study of Arabidopsis thaliana with 12 samples.

Results

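The genes described here encode factors that build ribosomes in the nucleolus of Arabidopsis: the core proteins of small nucleolar ribonucleoproteins (snoRNPs), the small subunit (SSU) processome, the assembly factors of the large (60S) subunit, and DEAD-box RNA helicases. A list of 60 loci was drawn up from homology to known factors, with earlier results of these data known. A gene counted as measured where at least 1 probe set on the array was paired with it alone. This held for 34 of the 60 listed genes, out of 13356 genes with a probe set of their own. Of the other 26, 25 had no probe set paired with them in the annotation used here and 1, the NOP58-like gene AT5G27120, shared its probe set with another gene. The array may hold probe sets for the 25 that this annotation does not pair. The study reports a value from these arrays for NUC-L2 (AT3G18610), which was likewise left unpaired here.

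RNA was taken from roots of 12-d-old seedlings that had been moved to fresh basal medium part of the way through, and was hybridised to Affymetrix ATH1 arrays, with 3 biological replicates of each genotype. The mutant sahy1 carries a T-DNA insertion in SAHY1 (AT2G01640), which encodes a small nucleolar protein, and its wild type is Col-0. The study names the allele sahy1-1, whereas the sample labels give no allele. SAHY1OE overexpresses SAHY1, and its wild type is Col-7. No sample carried another transgene or treatment by its labels. The labels do not name separate lines within a genotype, so line and genotype cannot be told apart.

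Ribosomal RNA is made as a long precursor that carries the 18S, 5.8S and 25S rRNAs between spacers. Box C/D snoRNPs guide methylation of the ribose, box H/ACA snoRNPs guide the conversion of uridine to pseudouridine, and the SSU processome, built around the U3 snoRNP, folds and cuts the 5′ part of the precursor into the pre-40S particle. A separate set of proteins assembles the pre-60S particle, and helicases remodel RNA in both. Dividing root cells make many ribosomes, and the genes for these factors are usually expressed most where cells grow and divide.

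All values are signals from the MAS5 algorithm, scaled per array to a common mean, so they measure a transcript relative to the rest of the RNA on the array and not per cell. In whole roots, a larger share of cells that express a gene and more of its RNA per cell cannot be told apart. The targeted gene followed its labels. SAHY1 read 451, 258 and 336 in Col-0 and 65.5, 7.01 and 143 in sahy1. It read 284, 259 and 252 in Col-7 and 20572, 20069 and 20789 in SAHY1OE. Signals are compared only within a probe set, since probe sets differ in how strongly they bind.

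In sahy1 roots the fitted values of the factors lay above those of either wild type, with 10 of the 34 passing the test of single genes in each comparison. Against Col-0 the log2 fold change was above 0 for all 34 members, with a median of 0.41 and a range of 0.14 to 0.93. Over all 13834 probe sets that passed the filter on low signals, the median was 0.00 and 50.1% lay above 0. Against Col-7 it was again above 0 for all 34 members, with a median of 0.41 and a range of 0.16 to 1.27. These comparisons share the mutant arrays, so the second is no independent repeat of the first. The list was chosen with earlier results of these data known, so the 34 of 34 describes these members and is not a test.

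The shift was present on each mutant array. The median of the members, relative to their mean in Col-0, was 0.43, 0.31 and 0.47 on the log2 scale for the 3 sahy1 arrays. It was 0.09, −0.07 and 0.00 in Col-0, 0.04, −0.05 and 0.02 in Col-7, and −0.06, −0.08 and −0.10 in SAHY1OE. The lowest mutant array thus lay above the highest of the other 9. The same median over all probe sets ran only from −0.01 to 0.02. Since each array had been scaled to a common mean, that level was largely set in advance.

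**Figure D1:**
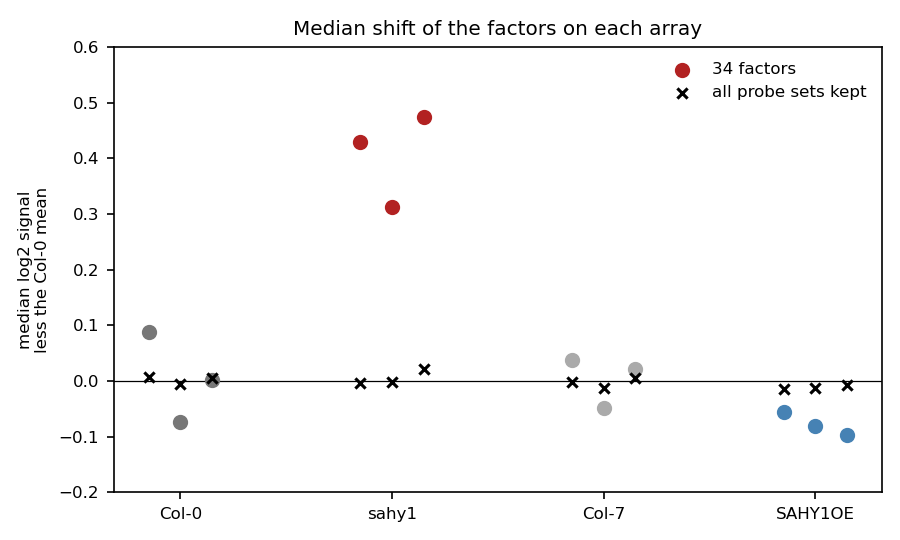
Median log2 signal of the 34 factors less their Col-0 mean (vertical axis) on each of the 12 arrays, grouped by genotype along the horizontal axis; filled circles are the factors and crosses are all 13834 probe sets kept. The 3 sahy1 arrays lie at 0.31 to 0.47, and the 9 others between −0.10 and 0.09.

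Gene by gene, a minority of the members passed the test against Col-0. At an adjusted p below 0.05 (limma, Benjamini-Hochberg over all probe sets kept), 10 of 34 members rose against Col-0 and 0 fell, beside 7.7% of all probe sets that rose and 7.32% that fell. None of the 10 passed 2-fold, where 2.37% of all probe sets did. Before adjustment, 26 members were at p below 0.05, all higher, beside 1961 of the 13834 probe sets higher and 1906 lower. In 25 members all 3 sahy1 arrays lay above all 3 Col-0 arrays, as did 17.5% of all probe sets. The count rested on single arrays: leaving out Col-0 replicate 2 gave 2, leaving out replicate 3 of either genotype gave 5, and leaving out sahy1 replicate 1 gave 6. BRX1-1 alone kept its call whichever of the 6 arrays was left out.

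Against Col-7, 10 of 34 members also rose and 0 fell (limma, adjusted p below 0.05), beside 6.22% and 6.69% of all probe sets. A single member, BRX1-1, passed 2-fold, where 1.34% of all probe sets did. All 3 mutant arrays lay above all 3 Col-7 arrays in 24 members, beside 15.6% of all probe sets. The count was 6 without sahy1 replicate 1 and 6 without Col-7 replicate 2. Of the 10 calls, 4 held whichever array was left out: BRX1-1, NOP56-like, YAO and AT5G57120.

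A comparison of sahy1 with the mean of both wild types, added after the data had been seen, used 6 control arrays and called 17 of 34 members higher and 0 lower, beside 8.9% of all probe sets. In 19 members the 3 sahy1 arrays lay above all 6 wild-type arrays, beside 9.08% of all probe sets. In 16 they lay above all 9 other arrays, SAHY1OE included, beside 7.36%. The count of 17 fell to 9 without sahy1 replicate 1 or without sahy1 replicate 3.

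**Figure D2:**
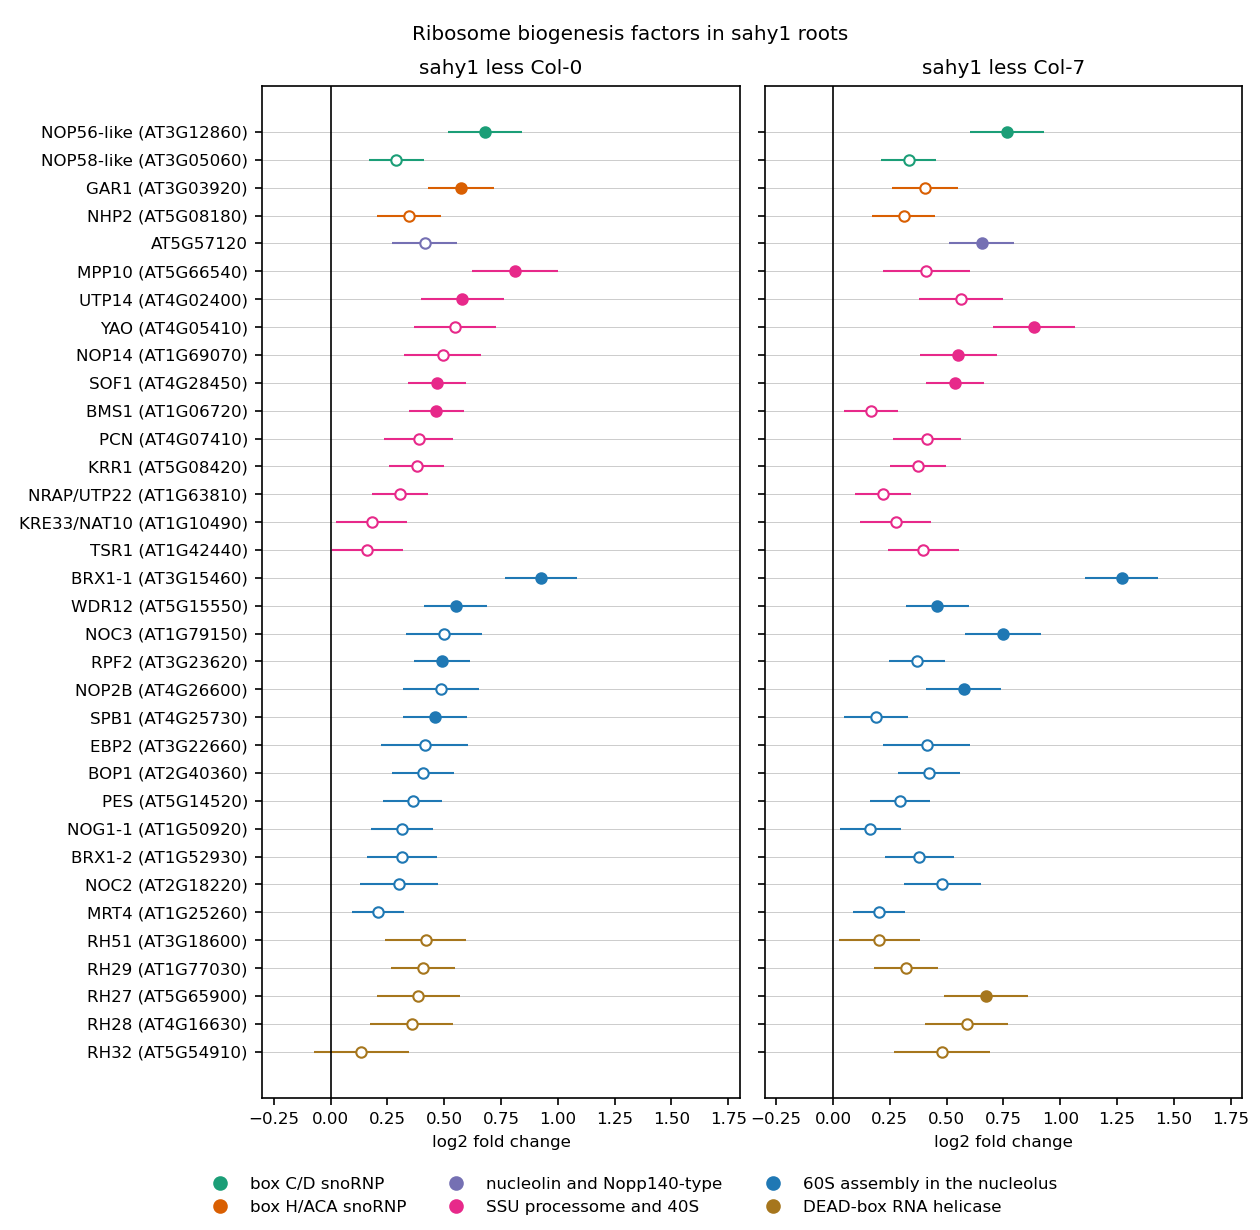
Log2 fold change of each of the 34 factors in sahy1 against Col-0 (left) and against Col-7 (right), with the standard error from limma; colours mark the functional class and filled circles an adjusted p below 0.05. All points lie to the right of 0, and BRX1-1 is the farthest right in both panels, at 0.93 and 1.27.

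Box C/D snoRNPs carry the methyltransferase fibrillarin on a pair of related scaffold proteins, NOP56 and NOP58. Of 6 listed genes 2 were measured: NOP56-like (AT3G12860) and the NOP58-like gene AT3G05060, whereas FIB1, FIB2 and NOP56 were not paired with a probe set. NOP56-like read 253, 228 and 233 in Col-0, 358, 368 and 419 in sahy1, 281, 166 and 241 in Col-7, and 204, 204 and 209 in SAHY1OE. The 3 mutant arrays were above the other 9, and the Col-7 arrays varied most. It rose 1.60-fold against Col-0 (log2 0.68 ± 0.16 SE, limma adjusted p = 0.0114) and 1.70-fold against Col-7 (0.76 ± 0.16, adjusted p = 0.00846). The first call was lost without sahy1 replicate 3 (adjusted p = 0.0516).

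AT3G05060 read 1386, 1179 and 1306 in Col-0 and 1452, 1613 and 1666 in sahy1. In Col-7 it read 1345, 1281 and 1135. The groups did not overlap, but the gap to Col-0 was narrow. Its log2 fold changes were 0.29 ± 0.12 against Col-0 (limma adjusted p = 0.129) and 0.33 ± 0.12 against Col-7 (adjusted p = 0.0858).

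Box H/ACA snoRNPs hold the pseudouridine synthase with GAR1, NHP2 and NOP10. Of 5 listed genes 2 were measured, and the synthase itself, NAP57, was not, nor were NOP10 and the assembly factor NAF1. The GAR1 homologue AT3G03920 read 2959, 2824 and 2780.2 in Col-0 and 4506, 3801 and 4474 in sahy1. It read 3052, 3549.8 and 3044 in Col-7 and 3113, 3603 and 2434 in SAHY1OE. The mutant arrays were the 3 highest of the 12. GAR1 rose 1.49-fold against Col-0 (0.57 ± 0.15, limma adjusted p = 0.0161), while the log2 fold change against Col-7 was 0.41 ± 0.15 (adjusted p = 0.0855). The call against Col-0 was lost on leaving out replicate 1 of sahy1, replicate 2 of Col-0 or replicate 3 of either, with an adjusted p of at most 0.0634.

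The NHP2 homologue AT5G08180 read 1237, 1071 and 1427 in Col-0 and 1355, 1625 and 1759 in sahy1. These groups overlapped. Its log2 fold changes were 0.34 ± 0.14 and 0.31 ± 0.14 against Col-0 and Col-7 (limma adjusted p = 0.123 and 0.166).

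Nucleolin (NUC-L1), which binds nascent pre-rRNA, was not paired with a probe set. AT5G57120, which has the C-terminal domain of SRP40/Nopp140, a chaperone of snoRNPs in yeast and mammals, read 686, 533 and 596 in Col-0 and 804, 789 and 812 in sahy1. It read 592, 519.6 and 430.0 in Col-7 and 511, 479 and 597 in SAHY1OE. The mutant arrays lay close together and above the other 9. AT5G57120 rose 1.57-fold against Col-7 (0.65 ± 0.14, limma adjusted p = 0.0104), and its log2 fold change against Col-0 was 0.41 ± 0.14 (adjusted p = 0.0714).

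Of the 18 listed genes of the SSU processome and 40S assembly, 11 were measured. Their log2 fold changes ran from 0.16 to 0.81 against Col-0, with a median of 0.47. Of the 11, 4 were called higher there, beside 7.7% of all probe sets. Against Col-7 the range was 0.17 to 0.88 and the median 0.41, with 3 of 11 called higher, beside 6.22% of all probe sets. Those called against Col-0 were homologues of MPP10, UTP14, SOF1 and BMS1. Those called against Col-7 were YAO and the NOP14 and SOF1 homologues. The listed genes APUM23, ENP1, TOZ, PWP2, EDA7, SWA1 and the NOC4 homologue were not paired with a probe set.

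The MPP10 homologue AT5G66540, a protein bound to U3 in yeast and mammals, read 229.9, 164 and 202 in Col-0, 343, 328 and 366 in sahy1, 287, 277 and 221 in Col-7, and 309, 408 and 232 in SAHY1OE. Here the mutant was above both wild types but not above SAHY1OE, whose arrays were widely spread. It rose 1.75-fold against Col-0 (0.81 ± 0.19, limma adjusted p = 0.0102), a call that was lost without Col-0 replicate 2 (adjusted p = 0.0556). Against Col-7 the log2 fold change was 0.41 ± 0.19 (adjusted p = 0.177), and Col-7 itself read above Col-0 by 0.40 ± 0.19 (adjusted p = 0.341).

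SOF1 is a WD40 protein of the processome. Its homologue AT4G28450 read 596, 515 and 512 in Col-0, 839, 665 and 746 in sahy1, 542, 456 and 551 in Col-7, and 516, 546 and 541 in SAHY1OE. The 9 non-mutant arrays spanned 456 to 596 and the mutant arrays started at 665. It rose 1.38-fold against Col-0 (0.47 ± 0.13, limma adjusted p = 0.0238) and 1.45-fold against Col-7 (0.54 ± 0.13, adjusted p = 0.0153). Leaving out sahy1 replicate 1, among others, ended both calls, with adjusted p = 0.108 and 0.0703.

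YAO (AT4G05410), a U3 snoRNP protein of the Rrp9 type, read 489, 426 and 530.1 in Col-0 and 707, 623 and 783 in sahy1. It read 491, 375 and 298 in Col-7 and 517, 386 and 399 in SAHY1OE. All mutant arrays were the highest, and the Col-7 arrays reached lowest. YAO rose 1.85-fold against Col-7 (0.88 ± 0.18, limma adjusted p = 0.00694), and its log2 fold change against Col-0 was 0.55 ± 0.18 (adjusted p = 0.0574).

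The remaining calls in this class were closer to the threshold. The UTP14 homologue AT4G02400 read 339, 278 and 267 in Col-0 against 532, 351 and 449 in sahy1, and rose 1.50-fold (0.58 ± 0.18, limma adjusted p = 0.0485). Its log2 fold change against Col-7 was 0.56 ± 0.18 (adjusted p = 0.0595). In SAHY1OE the UTP14 homologue read 415, 380 and 272, which overlapped the mutant arrays. BMS1 is a GTPase that works with the processome in yeast, and its homologue AT1G06720 read 336, 286 and 341 in Col-0 against 413, 430.4 and 487 in sahy1. It rose 1.38-fold (0.47 ± 0.12, limma adjusted p = 0.0174). In Col-7 the BMS1 homologue read 410.4, 406 and 367, nearly up to the mutant arrays, and the log2 fold change there was 0.17 ± 0.12 (adjusted p = 0.396). The UTP14 call was lost without any 1 of 4 arrays (adjusted p up to 0.196), and the BMS1 call without Col-0 replicate 2 or sahy1 replicate 3 (up to 0.0933). The NOP14 homologue AT1G69070, a scaffold protein in yeast, read 339, 264 and 319 in Col-0, 452, 492 and 358 in sahy1, and 286, 282 and 314 in Col-7. It rose 1.47-fold against Col-7 (0.55 ± 0.17, limma adjusted p = 0.0493), but 5 of 6 left-out arrays each ended that call (adjusted p up to 0.141).

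The other 5 genes of this class passed in neither comparison. KRR1 and PCN, the UTP4 homologue, had log2 fold changes of 0.38 ± 0.12 and 0.39 ± 0.15 against Col-0 (limma adjusted p = 0.0518 and 0.105), without overlap of the arrays. The NRAP/UTP22 homologue AT1G63810 stood at 0.30 ± 0.12 (adjusted p = 0.116). The smallest values against Col-0 belonged to the late 40S factor TSR1 (AT1G42440) and to the homologue of the rRNA acetyltransferase KRE33/NAT10 (AT1G10490). TSR1 read 694, 701 and 769 in Col-0 and 938, 659 and 848 in sahy1, a log2 fold change of 0.16 ± 0.16 (adjusted p = 0.553). KRE33/NAT10 read 267, 235 and 254 against 235, 298 and 330.1, a log2 fold change of 0.18 ± 0.16 (adjusted p = 0.495). In both, a mutant array fell within or below the Col-0 range. Against Col-7, TSR1 stood at 0.40 ± 0.16 (limma adjusted p = 0.115) without overlap of the arrays. KRE33/NAT10 stood at 0.28 ± 0.16 there (adjusted p = 0.27), with overlap.

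**Figure D3:**
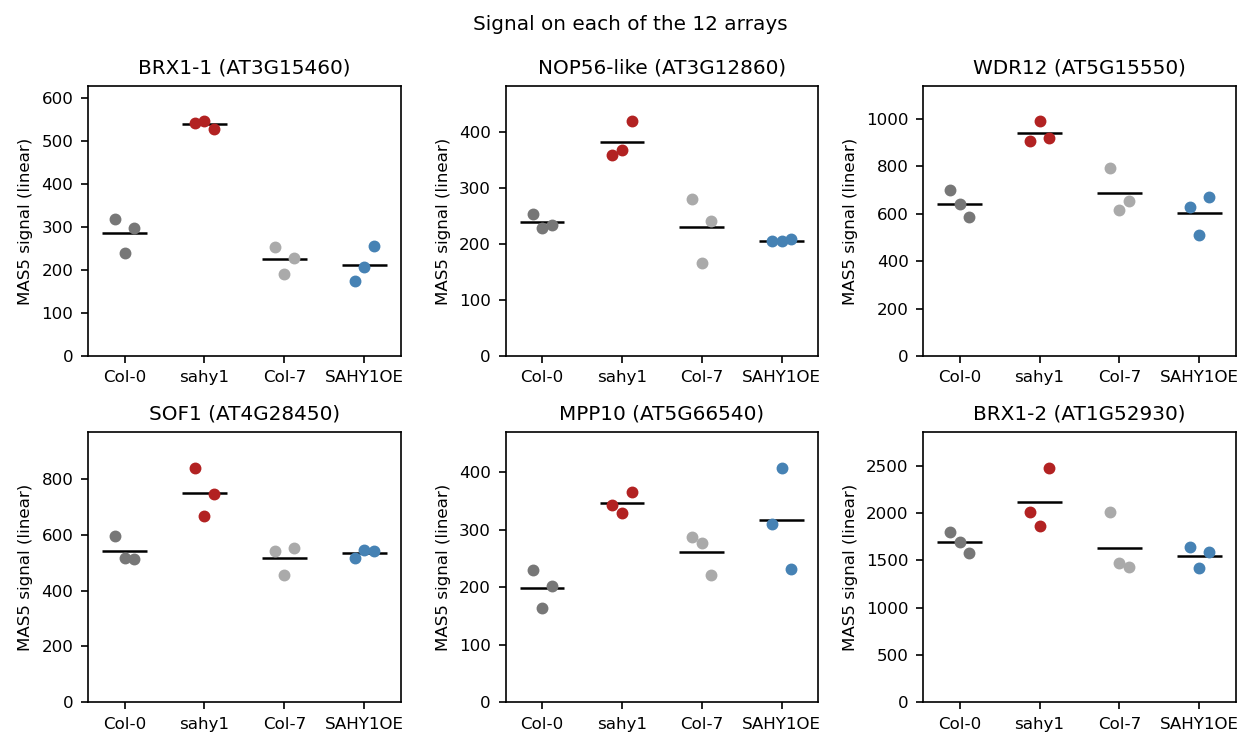
MAS5 signal (linear vertical axis from 0) of 6 factors on each array, with 3 points per genotype and a line at their mean. BRX1-1, NOP56-like, WDR12 and SOF1 separate sahy1 from the 9 other arrays, MPP10 overlaps SAHY1OE, and BRX1-2 overlaps Col-7.

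Of the 18 listed genes of nucleolar 60S assembly, 13 were measured. Their log2 fold changes ran from 0.21 to 0.93 against Col-0, with a median of 0.41, and from 0.16 to 1.27 against Col-7, with a median of 0.41. In each comparison 4 of 13 were called higher, beside 7.7% of all probe sets against Col-0 and 6.22% against Col-7. APUM24, MEE49, OLI2, PPAN and SWA2 were not paired with a probe set.

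BRX1 is needed for maturation of the large subunit rRNAs, and Arabidopsis has a pair of genes for it. BRX1-1 (AT3G15460) had the largest log2 fold change of the members in both comparisons. It read 319, 240.3 and 297 in Col-0, 542, 546 and 528 in sahy1, 254, 191 and 229 in Col-7, and 175, 207 and 256 in SAHY1OE. The 3 mutant arrays lay close together and above every other array. BRX1-1 rose 1.90-fold against Col-0 (0.93 ± 0.16, limma adjusted p = 0.00134) and 2.41-fold against Col-7 (1.27 ± 0.16, adjusted p = 0.000272).

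Its paralogue BRX1-2 (AT1G52930) read 1799, 1697 and 1580.0 in Col-0, 2013, 1858 and 2479 in sahy1, 2008, 1469 and 1426 in Col-7, and 1639, 1422 and 1593 in SAHY1OE. Col-7 replicate 1 lay inside the mutant range. Its log2 fold changes were 0.31 ± 0.15 (limma adjusted p = 0.2) and 0.38 ± 0.15 (adjusted p = 0.12). The per-array difference between BRX1-1 and BRX1-2 was larger in sahy1 by 0.61 on the log2 scale than in Col-0 and by 0.89 than in Col-7. Both differences were as extreme as 3 arrays against 3 allow (exact permutation test, two-sided, p = 0.1, the smallest possible; adjusted 0.133 over 4 pairings), so neither can pass the threshold.

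The PeBoW complex, made of pescadillo, BOP1 and WDR12, acts on the precursor of 5.8S and 25S rRNA, and all 3 genes were measured. The WDR12 homologue AT5G15550 read 699, 639.6 and 588 in Col-0, 906, 990.1 and 921 in sahy1, 793, 615 and 652 in Col-7, and 629.6, 509 and 669 in SAHY1OE. It rose 1.47-fold against Col-0 (0.55 ± 0.14, limma adjusted p = 0.0157) and 1.37-fold against Col-7 (0.46 ± 0.14, adjusted p = 0.0454). No other array reached the mutant ones, but the call against Col-0 was lost without Col-0 replicate 2 or 3 (adjusted p up to 0.0642) and that against Col-7 without any 1 of 5 arrays (up to 0.152). PES (AT5G14520) read 2782, 2619 and 2743 in Col-0 and 3911, 2977 and 3644 in sahy1, which came to 0.36 ± 0.13 on the log2 scale (limma adjusted p = 0.0803). BOP1 (AT2G40360) read 1968, 1809.9 and 1868 against 2702, 2137 and 2691, a log2 fold change of 0.41 ± 0.14 (adjusted p = 0.0616). For PES and BOP1, sahy1 replicate 2 was the lowest mutant array and lay within the range of Col-7. SAHY1OE overlapped the mutant for both as well, reading up to 3376 for PES and 2158 for BOP1.

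The NOC proteins accompany pre-60S particles toward the nuclear pore in yeast. The NOC3 homologue AT1G79150 read 438, 479.5 and 407 in Col-0, 635, 618 and 612 in sahy1, 419, 306 and 396 in Col-7, and 247, 382 and 361 in SAHY1OE. Mutant arrays were tightly grouped and the highest. It rose 1.68-fold against Col-7 (0.75 ± 0.17, limma adjusted p = 0.0114), with 0.50 ± 0.17 against Col-0 (adjusted p = 0.0624). NOC3 was the member with another probe set of its own, whose log2 fold changes were smaller, 0.47 against Col-7 (adjusted p = 0.0996) and 0.33 against Col-0 (adjusted p = 0.249). The call against Col-7 was also lost without Col-7 replicate 2 (adjusted p = 0.0518). The NOC2 homologue AT2G18220 stood at 0.30 ± 0.17 and 0.48 ± 0.17 (adjusted p = 0.274 and 0.08).

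RPF2 brings the 5S RNP into the pre-60S particle. RPF2 (AT3G23620) read 1237, 1148 and 1132 in Col-0 and 1539, 1788 and 1625 in sahy1, and rose 1.41-fold (0.49 ± 0.12, limma adjusted p = 0.0149). Against Col-7, which read 1241, 1148 and 1455, the log2 fold change was 0.37 ± 0.12 (adjusted p = 0.0655). Here the mutant arrays stayed above all 6 wild-type arrays. The call against Col-0 was lost without replicate 2 of either genotype or replicate 3 of Col-0 (adjusted p up to 0.0572).

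Among the rRNA methyltransferases of the class, the SPB1 homologue AT4G25730 read 642, 578 and 675 in Col-0 and 850.3, 958 and 797 in sahy1, and rose 1.37-fold (0.46 ± 0.14, limma adjusted p = 0.0418). Col-7 read 736, 741 and 801 and overlapped the mutant, as did SAHY1OE at 604, 732 and 864. Any 1 of the 6 arrays left out ended the call against Col-0 (adjusted p up to 0.158). NOP2B (AT4G26600) read 148, 136 and 182 in Col-0, 216, 182 and 254 in sahy1, 146, 156 and 133 in Col-7, and 121, 109.9 and 85.6 in SAHY1OE. Its highest Col-0 array and lowest mutant array were almost equal. NOP2B rose 1.49-fold against Col-7 (0.57 ± 0.17, limma adjusted p = 0.0374), with 0.49 ± 0.17 against Col-0 (adjusted p = 0.0669). The call against Col-7 was lost without any 1 of 5 arrays (adjusted p up to 0.144). In SAHY1OE, replicates 2 and 3 lay below the level of the filter, which was 115, 112 and 112 on those 3 arrays.

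The EBP2 homologue AT3G22660, the GTPase NOG1-1 (AT1G50920) and the MRT4 homologue AT1G25260 passed in neither comparison, with log2 fold changes against Col-0 of 0.41 ± 0.19, 0.31 ± 0.14 and 0.21 ± 0.11. MRT4, which holds the place of the stalk protein P0 on the pre-60S particle, was the member of this class with the smallest value against Col-0. It read 3615, 3488 and 3719 in Col-0, 4292, 4444 and 3806 in sahy1, and 3827, 4516 and 4176 in SAHY1OE, so SAHY1OE reached as high as the mutant. NOG1-1 read 2419, 2440 and 2591 in sahy1 and 2214, 2850 and 2955 in SAHY1OE, which spanned the mutant range.

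None of the 6 listed genes of 60S export and cytoplasmic maturation (eIF6A, NUG2, NSN1, LSG1-1, LSG1-2 and NMD3) was paired with a probe set in the annotation used here. The steps after the nucleolus were therefore not followed, although the array may hold probe sets for these genes.

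All 5 listed DEAD-box helicases were measured. Against Col-0 none passed the test, and the log2 fold changes were 0.42 ± 0.18 for RH51, 0.41 ± 0.14 for RH29, 0.39 ± 0.18 for RH27, 0.36 ± 0.18 for RH28 and 0.14 ± 0.21 for RH32. RH32 (AT5G54910) read 239.9, 141 and 219 in Col-0 and 248, 172 and 229 in sahy1, with groups that overlapped almost fully. Its log2 fold change was the smallest of all 34 members against Col-0, whereas against Col-7 it was 0.48 ± 0.21 (limma adjusted p = 0.152). Against Col-7, RH27 (AT5G65900) rose 1.60-fold (0.67 ± 0.18, limma adjusted p = 0.0296), a call lost without any 1 of 4 arrays (adjusted p up to 0.115). RH27 read 281, 194 and 192 in Col-0, 312, 255 and 294 in sahy1, and 183, 219 and 144 in Col-7, so 1 Col-0 array reached into the mutant range. Its paralogue RH51 (AT3G18600) read 1289.6, 991 and 923 in Col-0, 1755, 1059 and 1517 in sahy1, and 1139.6, 1331 and 1218 in Col-7. The change of RH51 less that of RH27 was 0.03 on the log2 scale against Col-0 and −0.47 against Col-7 (exact permutation test, two-sided, p = 0.9 and 0.1, adjusted 0.9 and 0.133). Replicate 2 of sahy1 was the lowest mutant array for RH51, RH27 and RH32.

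Overexpression of SAHY1 did not move these genes by an amount the test could call. In SAHY1OE against Col-7, 0 of 34 members rose and 0 fell (limma, adjusted p below 0.05), beside 0.0217% and 0.00723% of all probe sets, so the comparison as a whole held almost no calls. Before adjustment 0 members were higher and 3 lower at p below 0.05, beside 291 and 361 of the 13834 probe sets. The log2 fold change was above 0 for 11 of 34 members, with a median of −0.07 and a range of −0.47 to 0.26. All 3 SAHY1OE arrays lay above all 3 Col-7 arrays in 1 member, MRT4, and below them in 4, NOP2B, NRAP/UTP22, BMS1 and RH51, beside 4.01% and 4.73% of all probe sets. The lowest value was that of NOP2B, −0.47 ± 0.17, and the highest that of NOG1-1, 0.26 ± 0.14 (limma adjusted p = 1 for both after rounding).

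**Figure D4:**
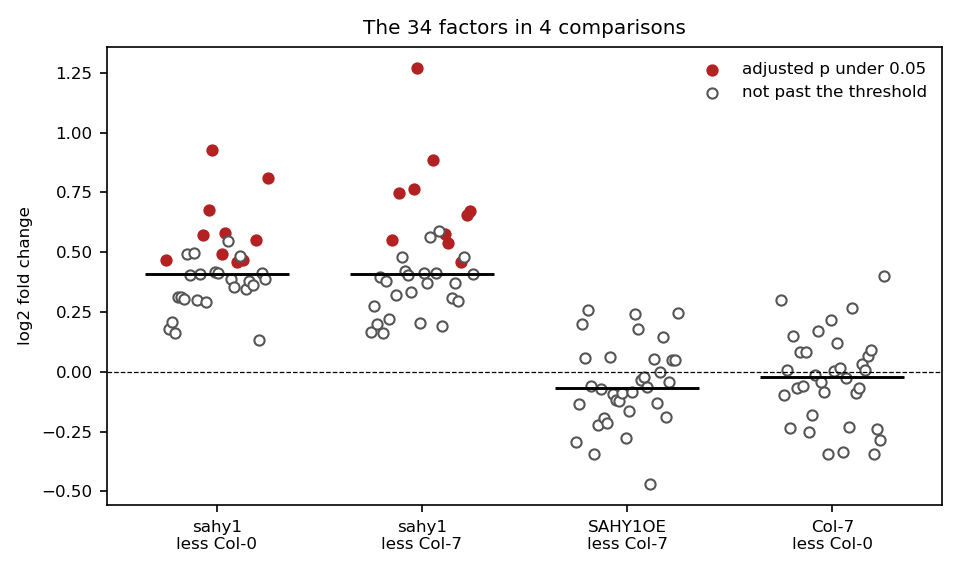
Log2 fold change of the 34 factors (vertical axis) in 4 comparisons, with a line at the median and red points for an adjusted p below 0.05. The points lie wholly above 0 in both sahy1 comparisons (medians 0.41 and 0.41) and on either side of 0 in SAHY1OE against Col-7 (−0.07) and Col-7 against Col-0 (−0.02).

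Between the wild types no member passed. In Col-7 against Col-0, 0 of 34 members rose and 0 fell (limma, adjusted p below 0.05), beside 2.57% and 1.66% of all probe sets. At an unadjusted p below 0.05, 1 member was higher and 1 lower, beside 1055 and 1055 of the 13834 probe sets. The median was −0.02 and the range −0.35 to 0.40, and 16 of 34 were above 0. All Col-7 arrays lay above all Col-0 arrays in 3 members (GAR1, BMS1 and SPB1) and below them in 1 (TSR1), beside 10.5% and 10.4% of all probe sets. BRX1-1 stood at one end of this range, at −0.35 ± 0.16, and MPP10 at the other, at 0.40 ± 0.19, so the wild type used raised the sahy1 value of one and lowered that of the other.

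The effect of losing SAHY1 was set against that of raising it by testing the difference between sahy1 against Col-0 and SAHY1OE against Col-7, which share no array. The difference was above 0 for all 34 members, beside 50.5% of all probe sets. Its median was 0.45 and its range 0.01 to 1.01. At an unadjusted p below 0.05, 17 members were higher, beside 1386 of the 13834 probe sets higher and 1259 lower. The difference passed for 5 of 34 members (limma, adjusted p below 0.05), all with a higher value for sahy1, beside 3.42% of all probe sets. These were BRX1-1 (1.01 ± 0.23, adjusted p = 0.016), NOP2B (0.96 ± 0.24, 0.0278), BMS1 (0.76 ± 0.17, 0.0164), WDR12 (0.74 ± 0.20, 0.0408) and NRAP/UTP22 (0.65 ± 0.17, 0.0408). For NRAP/UTP22 the arrays read 217, 210.4 and 215 in SAHY1OE and 245, 260.1 and 315 in Col-7, against 311, 312 and 326 in sahy1 and 262, 234 and 275 in Col-0, so part of the difference lay in lower signals in SAHY1OE than in Col-7. The same held for NOP2B, at −0.47 ± 0.17 in SAHY1OE against Col-7, with 2 of the 3 SAHY1OE arrays below the level of the filter. BMS1 read 304, 336 and 326 in SAHY1OE, at −0.29 ± 0.12 against Col-7 but level with the 336, 286 and 341 of Col-0, and Col-7 itself stood above Col-0 by 0.30 ± 0.12. With 1 array left out the count ranged from 1 to 4, and BRX1-1 was the member that passed throughout.

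Other genes of the same pathway, 32 in a separate list of RNA polymerase I subunits, exosome subunits and further processome and pre-60S proteins, had 14 measured members. Against Col-0, 13 of 14 were above 0 with a median of 0.33, and the helicase RH10 lay at −0.13 ± 0.14. Of the 14, 3 rose and 0 fell, beside the 7.7% of all probe sets that rose. Those 3 were the SDA1-like gene AT1G13160, the UTP12-like gene AT3G21540 and NRPA1, the largest subunit of RNA polymerase I. AT1G13160, whose yeast homologue takes part in 60S assembly, read 268, 222 and 209.8 in Col-0, 523, 456 and 549 in sahy1, and 338, 311 and 299 in Col-7. It rose 2.19-fold against Col-0 (1.13 ± 0.13, limma adjusted p = 6.07e-05) and 1.61-fold against Col-7 (0.69 ± 0.13, adjusted p = 0.00512). UTP12-like and NRPA1 rose by 0.69 ± 0.18 and 0.56 ± 0.17 against Col-0 (limma adjusted p = 0.0201 and 0.037). Against Col-7 they stood at 0.44 ± 0.18 and 0.21 ± 0.17 (adjusted p = 0.133 and 0.449). For NRPA1 the mutant and Col-7 arrays overlapped, and Col-7 itself read above Col-0 by 0.35 ± 0.17 (adjusted p = 0.344).

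Against Col-7, 13 of the 14 were above 0 with a median of 0.36, and the helicase RH7 lay at −0.10 ± 0.14. Of the 14, 4 rose and 0 fell, beside the 6.22% of all probe sets that rose. These were RRP7 (0.79 ± 0.18), AT1G13160, the UTP21-like gene AT4G04940 (0.64 ± 0.14) and NRPA2, the other large subunit of RNA polymerase I (0.40 ± 0.12). RRP7, a nucleolar protein of 18S rRNA maturation, differed between the wild types. It read 369, 297 and 479 in Col-0 and 387, 354 and 392 in sahy1, but 231, 197 and 228 in Col-7, lower than Col-0 by 0.78 ± 0.18 on the log2 scale (log2 fold change −0.78, limma adjusted p = 0.0263). In SAHY1OE against Col-7, 0 of the 14 rose and 0 fell, with 7 above 0 and a median of 0.01.

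Markers of cell types were followed beside the factors. None of the 14 listed genes of dividing cells and none of the 8 of green tissue was paired with a probe set, and of 12 root genes only EXPA7 and EXPA18, expansins of root hairs, were. These fell in sahy1, by 1.05 and 1.19 against Col-0 and by 1.16 and 1.11 against Col-7 on the log2 scale (limma adjusted p of at most 0.000593), with all mutant arrays below all others. EXPA7 read 289, 417 and 288 in sahy1 and 589, 704 and 747 in Col-0. Another list, of 12 genes of DNA replication and mitosis, was drawn up later because they have probe sets of their own. BUBR1, KINESIN-12B and the kinesin gene AT4G14330 failed the filter on low signals, so 9 of the 12 could be tested. Against Col-0, 11 of 12 were above 0 with a median of 0.16, and 0 passed, beside the 7.7% of all probe sets that rose. Against Col-7, 10 were above 0 with a median of 0.23, and 1 passed, beside the 6.22% of all probe sets that rose. That 1 was the kinesin gene AT2G22610 (0.71 ± 0.16, limma adjusted p = 0.0127). Against Col-0 this gene stood at 0.31 ± 0.16 (adjusted p = 0.241), and all its Col-7 arrays lay below all its Col-0 arrays. AUR1, an Aurora kinase of mitosis, read 533, 599 and 549 in Col-0 and 639.6, 534 and 653 in sahy1. AUR2 read 302, 242 and 232 in Col-0 and 394, 303 and 351 in sahy1, narrowly without overlap. On the log2 scale AUR2 lay 0.43 ± 0.18 above Col-0 (adjusted p = 0.132 by limma) and AUR1 0.12 ± 0.14. Above Col-7, AUR2 lay by 0.30 ± 0.18, with overlap. In all other genes of this list, AUR1 included, the sahy1 and Col-0 arrays overlapped. The part that the makeup of the root had in the values of the factors was not tested.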

How the data were processed

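The deposited values are MAS5 signal intensities of 22746 probe sets (64 control probe sets left out) on 12 ATH1 arrays, which the authors had scaled per array to 1 common level (about 500.04 for the mean of each deposited column, less 2% at either end). The submitters' notes name MAS5 for the signals and GeneSpring GX 10.0.1 for their own tests. Per the platform annotation, 13513 probe sets paired with 1 gene, 503 with several and 8730 with none, and listed genes were matched by locus and gene number. Where a gene had more than 1 probe set, that with the highest mean over all arrays was used. Detection calls and array-level depth were not used here, and 3 arrays per group limit the precision.

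Signals were set to a floor of 1, taken to log2 and fitted with limma 3.58.1 in R 4.3.3, with group means over all 12 arrays and no covariate. Probe sets were kept where all 3 arrays of a group reached their array's 40th percentile (13834, all 34 measured factors among them), and p-values were adjusted by Benjamini-Hochberg over these. A gene was called at an adjusted p below 0.05, with the count above 2-fold beside it. Differences between paralogues were tested by exact permutation over arrays. The limma p-values weigh a difference of group means against the spread between replicate arrays, pooled over the groups and moderated across probe sets. They do not separate line from genotype. The fit was tested on simulated data with known changes. Plots were made with matplotlib 3.10.9.

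Members were named by a rule: those past the threshold, the 5 with the highest and the 5 with the lowest log2 fold change against Col-0, those that the study reports beside SAHY1, and the paralogue pairs. NRAP/UTP22 and other members were added so that each is accounted for. The members, the gene lists and the tests were chosen with earlier results of these data known. Alternatives were another normalization between arrays, pseudocount, filter, test, threshold and set of samples, a replicate block, array weights, and each array left out. The comparison with both wild types and the list of division genes were added after the data had been seen. Sequences were not used here.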

Additional observations from a re-analysis of the deposited data

Results flagged for a closer look

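For 5 factors the effect of losing SAHY1 (sahy1 against Col-0) and that of overexpressing it (SAHY1OE against Col-7) differed by a test of the difference itself (limma, adjusted p below 0.05). On the log2 scale the difference was 1.01 for BRX1-1 (AT3G15460), 0.96 for NOP2B (AT4G26600), 0.76 for the BMS1 homologue (AT1G06720), 0.74 for the WDR12 homologue (AT5G15550) and 0.65 for the NRAP/UTP22 homologue (AT1G63810). In each the value was higher in the mutant contrast. BRX1-1 passed with any array left out (adjusted p of at most 0.0474), BMS1 lost its call without Col-0 replicate 2 (0.0537), and the other 3 lost theirs without any 1 of 7 to 10 of the 12 arrays (up to 0.0781 for NOP2B, 0.0966 for WDR12 and 0.115 for NRAP/UTP22).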

How the results depend on the processing

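Under each alternative run the median of the members stayed above 0 in sahy1 and no called gene turned in direction, whereas the number called changed. Against Col-0 the 10 members called higher became 3 with no filter, 16 with a filter at the 60th percentile, 3 by the methods' unpaired t-test, 24 with array weights, 0 above 2-fold and 1 at an adjusted p below 0.01, and ranged from 2 to 12 with 1 array left out. Against Col-7 the 10 became 4 with no filter, 0 by the methods' t-test, 1 above 2-fold and 3 at an adjusted p below 0.01, and ranged from 6 to 11 with 1 array left out. Against both wild types, a comparison chosen after seeing the data, the 17 became 8 with no filter, 26 with array weights, 1 above 2-fold and 6 at an adjusted p below 0.01, and ranged from 9 to 18. The 5 members that passed for the difference of effects became 0 with no filter, 1 above 2-fold and 0 at an adjusted p below 0.01, and ranged from 1 to 4. With 1 array left out, the median of the members ranged from 0.37 to 0.48 against Col-0, from 0.36 to 0.48 against Col-7 and from −0.082 to 0.046 between the wild types. The labels do not say that replicate numbers pair the samples, and same-numbered arrays did not correlate above 0.1 in every pair (−0.10 to 0.24). As a hint from the data, 6 of 6 arrays were closest to their own number in SAHY1OE against Col-7, 5 of 6 in Col-7 against Col-0, 3 of 6 in sahy1 against Col-0 and 0 of 6 in sahy1 against Col-7. With the replicate block 12 and 10 members were called higher in sahy1 against Col-0 and against Col-7, and 6 for the difference of effects. Over the named genes, 2435 values stayed on their side of the threshold, 223 fell short of it and 60 passed it. The causes were not tested. All 34 factors passed the filter, with NOP2B and RH32 lowest in mean signal, and NOP2B lay below its level on SAHY1OE replicates 2 and 3.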
